A study of Mus musculus with 4 samples.

Results

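The contractile and actin-bundling genes studied here are 33 named genes that encode muscle actins, smooth muscle contractile proteins, nonmuscle myosin, tropomyosins, actin crosslinkers and the transcription factor SRF with its coactivator myocardin. They were chosen by name, and each was read through the probe sets paired with that gene alone. All 33 were found, on 82 of the 34958 probe sets that are paired with 1 gene, among 18194 genes in all. Expression was measured in mouse embryonic fibroblasts, which are mesenchymal cells grown out of embryos, at passage 5. Cells came from FAK-/- (knockout) and FAK+/+ (wild type) mice. FAK is focal adhesion kinase, a tyrosine kinase at the sites where integrins tie the matrix to actin cables. The 4 groups were FAK-/- untreated, FAK+/+ untreated, FAK-/- treated with endothelin-1 (ET-1) and FAK+/+ treated with ET-1, and every group had been starved of serum for 24 h before the 24 h with or without the peptide. ET-1 is a peptide that acts on G protein-coupled receptors and makes smooth muscle contract. The labels give no dose, no age of the embryos and no number of animals or lines. Each group was hybridised to 1 Affymetrix mouse genome array, so a difference between 2 arrays has no replicate check.

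Stress fibres are bundles of actin filaments crosslinked by alpha-actinin and filamin and pulled together by nonmuscle myosin II. Myosin pulls when its regulatory light chain is phosphorylated by myosin light chain kinase, and calponins, caldesmon, transgelin and tropomyosins line the filament and tune that pull. SRF binds a short DNA element called the CArG box in the promoters of many of these genes, and its MRTF coactivators enter the nucleus when monomeric actin is used up by polymerisation. Fibroblasts that switch on the smooth muscle members of the set are called myofibroblasts, and Acta2 is their usual marker.

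Levels are log2 values summarised by RMA, so a difference of 1 is 2-fold. Each gene is represented by its brightest probe set, the one with the highest mean over the 4 arrays. Genes were kept when at least 1 array read above the median of all values (log2 8.90), which left 12290 genes and 31 of the 33 members. Myh11, the smooth muscle myosin heavy chain, read 7.74 to 7.85 in the 4 arrays and Myocd, which encodes myocardin, read 7.18 to 7.58. Both defining genes of mature smooth muscle were therefore below the filter in every group. The arrays reached maxima of 15.21 to 15.24. The brightest probe sets of 10 members came within 1 log2 unit of the maximum on at least 1 array, and those of Acta2 and Cnn3 did so on all 4, as did 1.24% of all genes tested. Differences of such bright genes can be understated. The array of ET-1-treated FAK+/+ cells stood apart from the others in the controls for transcript ends. The log2 gap between the probe sets at the 3' and 5' ends of Gapdh was 3.79 on that array, against 0.85 to 0.90 on the remaining 3. The same gap for Actb was 1.81, against 1.30 and 1.27 in untreated and ET-1-treated FAK-/- cells and 0.66 in untreated FAK+/+ cells. No probe set is paired here with the gene that encodes FAK, so the genotype labels were not checked against it.

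**Figure D1:**
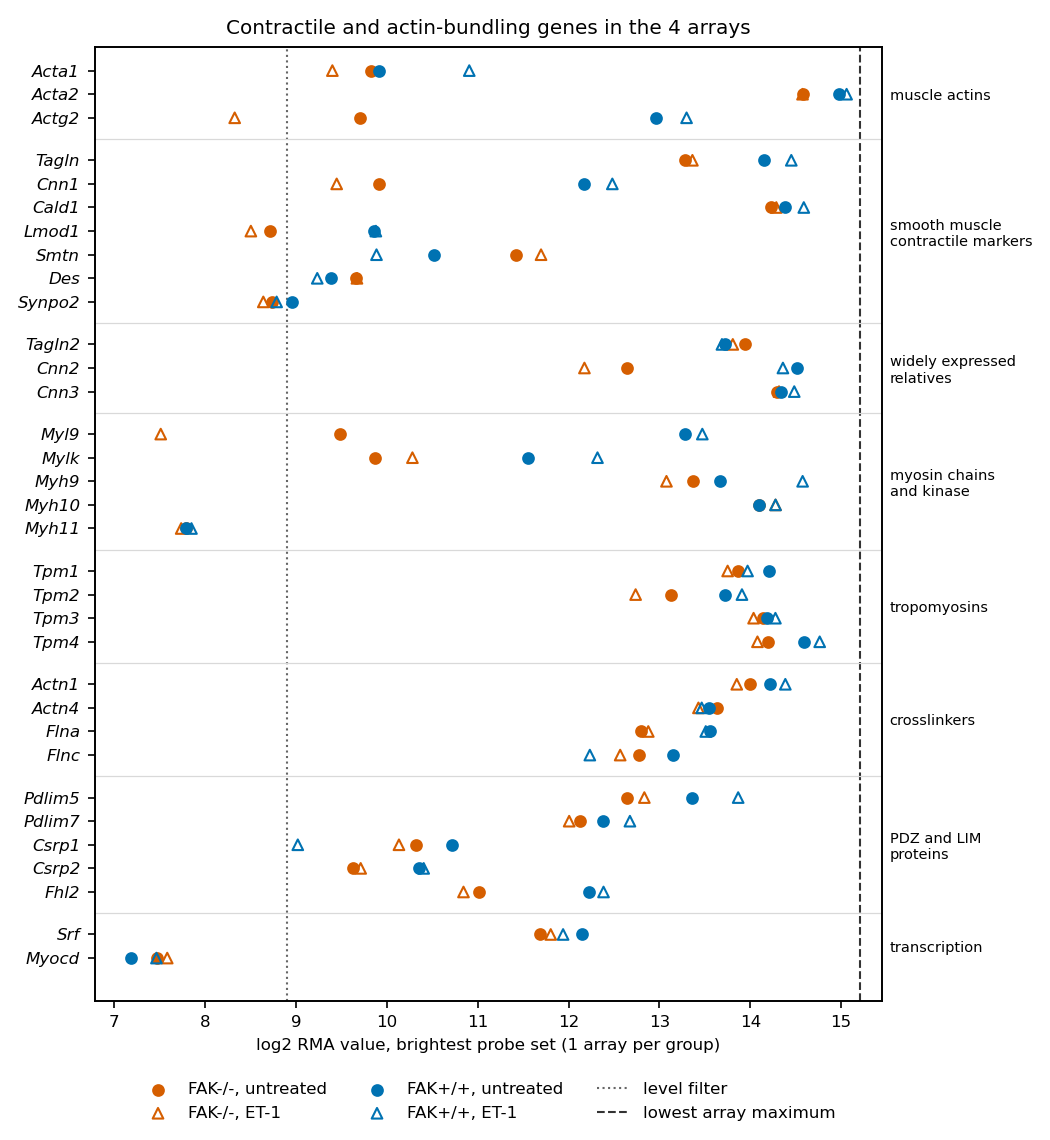
Log2 RMA value of the brightest probe set of each of the 33 genes (horizontal axis) in each of the 4 arrays, with genes grouped by role. Myl9, Actg2, Cnn1, Cnn2 and Mylk sit far lower in the FAK-/- arrays than in the FAK+/+ arrays, whereas Acta2 lies near the array maximum on all 4 and Myh11 and Myocd lie below the level filter.

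The members most reduced in FAK-/- fibroblasts were the light chain gene Myl9, the smooth muscle actin Actg2 and the calponins Cnn1 and Cnn2, each at least 3.67-fold lower in untreated cells. Of the 7 smooth muscle contractile markers, 3 fell, 1 rose and 3 did not pass the test. By the same test 7.05% of all genes fell and 6.60% rose. In untreated cells 7 of 31 members were at least 2-fold lower in FAK-/- than in FAK+/+ fibroblasts, where 4.59% of all genes tested were. These were Myl9, Actg2, Cnn1, Cnn2, Mylk, Fhl2 and Lmod1. Lmod1, also among the 3 markers that fell, passed the level filter through the FAK+/+ arrays alone, so it gives these counts no support. No member was at least 2-fold higher (0 of 31), where 4.78% of all genes were. After ET-1, 12 members were at least 2-fold lower and 2 at least 2-fold higher, where 6.53% and 5.61% of all genes were. The 7 members that were 2-fold lower in untreated cells were all 2-fold lower after ET-1 as well. Of all genes, 7.48% were past 2-fold in the same direction in both states.

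The median log2 difference of the 31 members, FAK-/- minus FAK+/+, was -0.39 in untreated cells and -0.63 with ET-1, against 0.02 and -0.03 over all genes tested. In 24 of 31 members both FAK-/- arrays read below both FAK+/+ arrays, an arrangement found in 29.3% of all genes. Lmod1 and Synpo2, both among the 24, passed the level filter through FAK+/+ arrays alone, so they give no support for a direction. In 3 members, Smtn, Des and Tagln2, both FAK-/- arrays read above both FAK+/+ arrays by the brightest probe set. An arrangement without overlap, in either direction, was thus found in 27 of 31 members and 59.3% of all genes. The groups overlapped in the remaining 4, Myh10, Actn4, Flnc and Csrp1. An additive model of genotype and treatment (limma, Benjamini-Hochberg over 12290 genes) gave a genotype difference at an adjusted p under 0.05 for 12 members. Of these 11 fell and 1 rose in FAK-/- cells, where 7.05% of all genes fell and 6.60% rose. Lmod1 is among the 11 that fell. The model weighs a difference against the genotype by treatment term, its only residual degree of freedom, and not against a spread between cultures. Without the array of ET-1-treated FAK+/+ cells, a fit of genotype alone called 15 members lower and 1 higher, 16 of 31, where it called 23.1% of all genes. That fit has FAK+/+ as 1 array, and its spread comes from the untreated and ET-1-treated FAK-/- arrays alone, so the FAK+/+ array is assumed to vary like them.

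**Figure D2:**
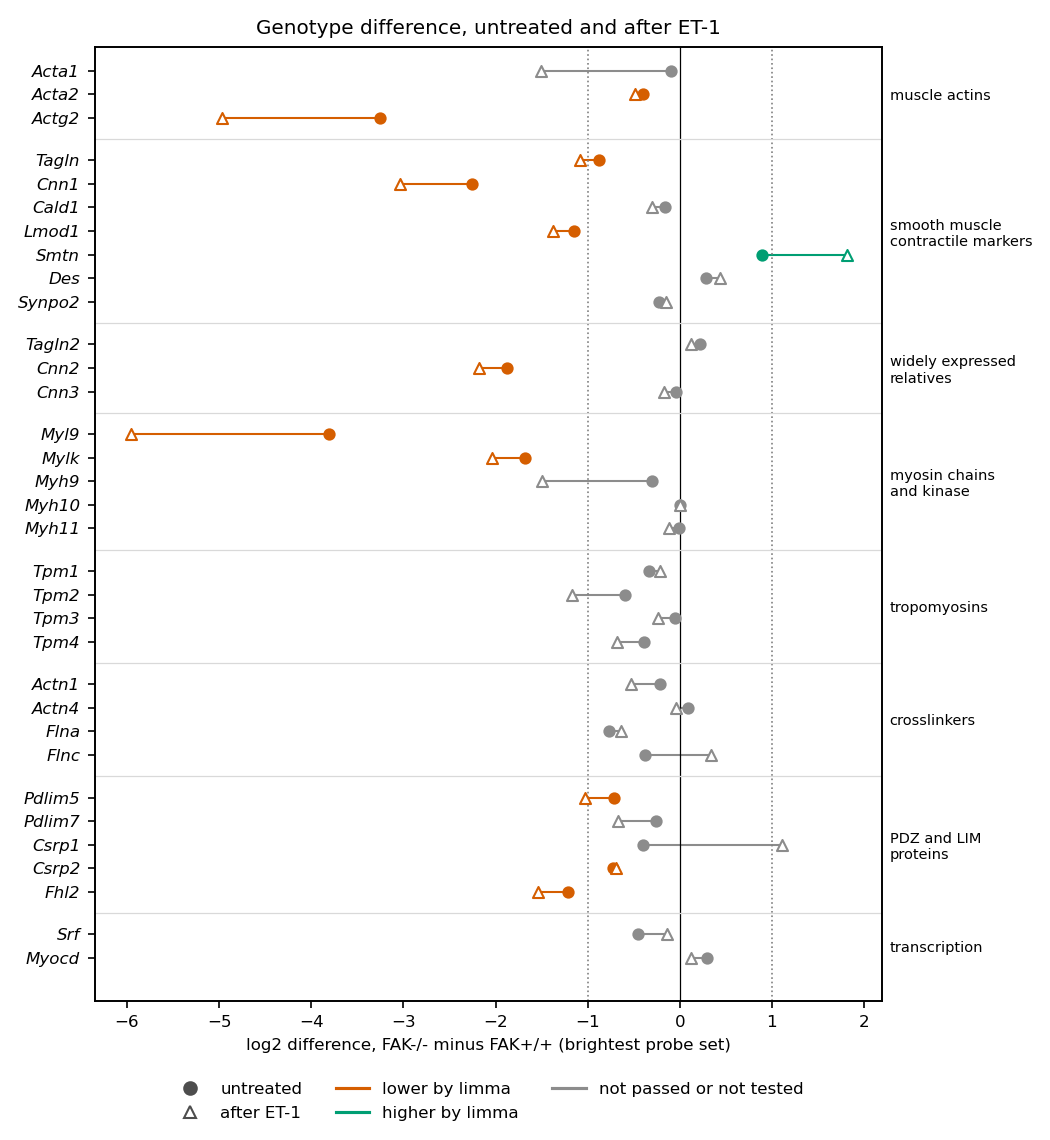
Log2 difference FAK-/- minus FAK+/+ (horizontal axis) for each of the 33 genes in untreated cells (circles) and after ET-1 (triangles), coloured by the limma genotype call, with dotted lines at 2-fold. The differences run from -3.80 for Myl9 to 0.90 for Smtn in untreated cells and from -5.96 to 1.81 for the same genes after ET-1.

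**Figure D3:**
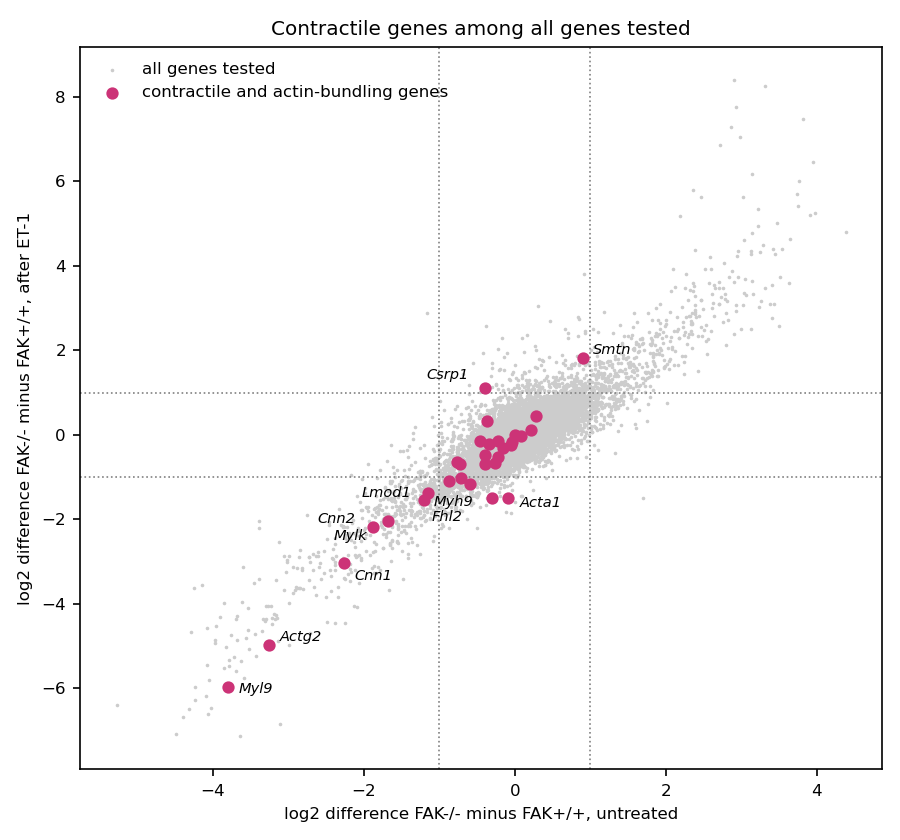
Log2 difference FAK-/- minus FAK+/+ in untreated cells (horizontal axis) against the same difference after ET-1 (vertical axis) for all 12290 genes tested, with the 31 members in colour and dotted lines at 2-fold. The 7 members in the lower left corner are at least 2-fold lower in both states, and no member lies in the upper right corner.

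Srf itself, the factor that binds CArG boxes, did not pass the test. It read 11.69 in untreated and 11.80 in ET-1-treated FAK-/- cells, against 12.14 and 11.94 in untreated and ET-1-treated FAK+/+ cells. Both FAK-/- arrays were lower, and the fitted difference was -0.30 ± 0.18 on the log2 scale (SE, limma adjusted p = 0.368). A dimmer probe set gave -0.47 in untreated cells and 0.22 with ET-1, so its sign turned between the states. Among 27 SRF and MRTF regulators that passed the filter, 4 fell and 1 rose by limma, where 7.05% and 6.60% of all genes did. The median difference of the 27 regulators was -0.02 in each treatment state. Mrtfa, a coactivator released by actin polymerisation, read 10.30 and 10.39 in untreated and ET-1-treated FAK-/- cells, against 11.15 and 10.64 in FAK+/+ cells. Its relative Mrtfb read 13.09 and 13.42 in FAK-/- cells, against 12.88 and 13.04 in FAK+/+ cells. The difference of Mrtfb was therefore in the other direction from that of Mrtfa, but neither passed (limma adjusted p = 0.279 and 0.149). Elk3, a ternary complex factor that binds DNA beside SRF, fell by 3.82 ± 0.19 (SE, limma adjusted p = 0.00576) and was lower in both FAK-/- arrays. The ET-1-treated FAK-/- value of Elk3, 8.72, lay below the level filter, which makes the size uncertain. Ppp1r14a (CPI-17), an inhibitor of myosin phosphatase known from smooth muscle, fell by 2.79 ± 0.23 (limma adjusted p = 0.00869), but its FAK-/- values of 7.12 and 7.21 lay below the level filter and it passed through the FAK+/+ arrays alone. Ppp1r12b, a targeting subunit of that phosphatase, fell by 1.04 ± 0.13 (limma adjusted p = 0.0195).

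Promoter sequence was examined because SRF ties many of these genes together. RefSeq windows (GRCm38.p6) were matched by symbol for 28 of the 33 genes, with 34 start sites, and the 250 bases before each start were searched. Actg2, Tagln, Myh11, Csrp2 and Myocd had no entry. A CArG box was searched as CC, 6 bases of A or T, and GG, without variants. It was present in 5 of the 28 members, which were Myl9, Cnn2, Fhl2, Acta1 and Srf, and in 1.62% of 27025 genes. Counted by start site, 6 of 34 member windows held it (17.6%), against 1.47% of 32851 windows. The element reads as a CArG box on either strand, so 1 search covers both. The set was listed partly for its serum response factor genes, so a share above that of all genes was built into the choice. That share gives no support for a role of SRF here. The 5 genes with a box in this window had a median genotype difference of -1.21 in untreated cells and -1.54 with ET-1. The 23 others that passed the filter, Acta2 among them, had -0.30 and -0.30. Of the 7 members 2-fold lower in untreated cells, Myl9, Cnn2 and Fhl2 are among the 5, while Acta1 and Srf differed by -0.09 and -0.46. These windows are printed with CArG boxes in capitals, 5' to 3' on the gene strand, to show the element in genes past 2-fold and in genes short of it. Acta2 is shown beside them because its window held no exact match. The capitals there mark 2 elements that have 1 central G or C in place of A or T. Whether SRF binds such elements was not tested, so Acta2 is not shown to lack an SRF site.
Myl9, chr2:156775214-156775463, plus strand: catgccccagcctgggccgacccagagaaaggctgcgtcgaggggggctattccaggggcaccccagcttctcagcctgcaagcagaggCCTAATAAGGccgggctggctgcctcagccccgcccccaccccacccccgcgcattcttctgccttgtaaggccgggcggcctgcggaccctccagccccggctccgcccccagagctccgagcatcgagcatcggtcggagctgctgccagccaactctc
Cnn2, chr10:79988350-79988599, plus strand: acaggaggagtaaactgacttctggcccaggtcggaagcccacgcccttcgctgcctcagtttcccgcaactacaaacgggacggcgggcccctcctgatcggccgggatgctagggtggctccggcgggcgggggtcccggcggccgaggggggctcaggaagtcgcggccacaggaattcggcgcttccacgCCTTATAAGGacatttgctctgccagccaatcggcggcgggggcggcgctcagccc
Fhl2 (first start site shown), chr1:43163962-43164211, minus strand: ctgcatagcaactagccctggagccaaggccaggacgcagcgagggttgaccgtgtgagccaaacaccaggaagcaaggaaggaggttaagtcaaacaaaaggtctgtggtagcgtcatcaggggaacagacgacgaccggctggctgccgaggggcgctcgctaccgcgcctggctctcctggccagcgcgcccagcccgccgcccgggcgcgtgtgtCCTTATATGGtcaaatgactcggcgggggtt
Fhl2 (other start site), chr1:43196762-43197011, minus strand: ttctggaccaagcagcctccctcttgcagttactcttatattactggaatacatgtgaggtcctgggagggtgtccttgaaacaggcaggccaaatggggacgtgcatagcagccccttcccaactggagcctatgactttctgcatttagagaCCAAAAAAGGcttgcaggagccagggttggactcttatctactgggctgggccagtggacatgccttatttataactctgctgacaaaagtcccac
Srf, chr17:46556163-46556412, minus strand: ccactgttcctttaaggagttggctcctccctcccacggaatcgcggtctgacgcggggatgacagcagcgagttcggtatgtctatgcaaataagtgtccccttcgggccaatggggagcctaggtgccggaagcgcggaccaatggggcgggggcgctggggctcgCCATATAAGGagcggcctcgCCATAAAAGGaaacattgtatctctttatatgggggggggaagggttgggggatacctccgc
Acta1, chr8:123894776-123895025, minus strand: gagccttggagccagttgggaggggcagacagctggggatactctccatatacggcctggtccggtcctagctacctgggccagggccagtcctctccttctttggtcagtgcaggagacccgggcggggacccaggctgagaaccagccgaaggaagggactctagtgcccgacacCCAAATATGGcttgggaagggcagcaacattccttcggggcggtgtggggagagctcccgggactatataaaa
Acta2, chr19:34255374-34255623, minus strand: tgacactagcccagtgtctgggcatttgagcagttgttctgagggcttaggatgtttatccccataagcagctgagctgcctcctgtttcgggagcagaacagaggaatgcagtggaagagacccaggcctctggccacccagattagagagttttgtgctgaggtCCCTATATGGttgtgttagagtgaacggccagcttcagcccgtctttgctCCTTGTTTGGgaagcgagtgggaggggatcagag
The CArG box of Myl9 began 161 bases before the start, that of Cnn2 56 bases before and that of Acta1 73 bases before. Fhl2 had 1 box before each of its annotated starts, at 31 and 96 bases. Srf had 2, at 82 and 62 bases. Elements with 1 central G or C were in 5 of 28 members and 8.33% of all genes, and those of Acta2 began 84 and 34 bases before its start. The MCAT element CATTCC, which TEAD factors bind, was searched on both strands and was in 12 of 28 members and 14.4% of all genes. The 12 members with it had a median difference of -0.25 in untreated cells and the 16 without it one of -0.39. A match is a run of letters in this window, and binding was not measured.

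Of the muscle actins, Actg2, the gamma actin of enteric smooth muscle, was among the most different members. It read 9.71 in untreated and 8.33 in ET-1-treated FAK-/- cells, against 12.96 and 13.30 in untreated and ET-1-treated FAK+/+ cells. Its level was 9.54-fold lower in untreated FAK-/- cells and 31.4-fold lower after ET-1, and it fell by 4.11 ± 0.45 averaged over treatments (SE, limma adjusted p = 0.0147). The ET-1-treated FAK-/- value lies below the level filter, which makes the larger fold uncertain. Acta2, the alpha actin of vascular smooth muscle and myofibroblasts, read 14.58 in both FAK-/- arrays, against 14.98 and 15.06 in untreated and ET-1-treated FAK+/+ cells. The genotypes did not overlap, but every value lay within 1 log2 unit of the array maximum. Acta2 fell by 0.44 ± 0.07 (limma adjusted p = 0.0330). Averaging its 3 probe sets, of which 2 are below the level filter, gave a limma adjusted p of 0.0593. Acta1, the skeletal muscle alpha actin, read 9.82 and 9.40 in untreated and ET-1-treated FAK-/- cells, against 9.92 and 10.91 in FAK+/+ cells. Untreated cells thus differed by -0.09 and ET-1-treated cells by -1.51, and the fitted genotype difference did not pass (limma adjusted p = 0.247). Muscle actins are near-identical in their coding sequence, so probe sets can take up signal from another actin. The cytoplasmic actins, which make most of the filament in any cell, read 14.74 and 14.87 for Actb in FAK-/- cells, against 15.07 and 15.06 in FAK+/+ cells. Actg1 differed by -0.05 in untreated cells and -0.06 with ET-1.

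Myosin genes did not move together. Myl9, the smooth muscle regulatory light chain that is phosphorylated to switch myosin II on, had the lowest difference of all 31 members tested. It read 9.48 in untreated and 7.51 in ET-1-treated FAK-/- cells, against 13.29 and 13.47 in FAK+/+ cells. Both FAK-/- values lay far below both FAK+/+ values, at 14.0-fold lower without ET-1 and 62.3-fold lower with it, where the FAK-/- array was below the level filter. Averaged over treatments Myl9 fell by 4.88 ± 0.55 (SE, limma adjusted p = 0.0158). Mylk, the kinase that phosphorylates the light chain, read 9.87 and 10.28 in untreated and ET-1-treated FAK-/- cells, against 11.55 and 12.32 in FAK+/+ cells. It was 3.21-fold lower in untreated FAK-/- cells and 4.10-fold lower after ET-1, and fell by 1.86 ± 0.16 (limma adjusted p = 0.00947). A second Mylk probe set above the filter gave -0.79 and -0.97, and another below it gave -0.18 and -0.04.

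The heavy chains were closer between genotypes. Myh10, nonmuscle myosin IIB, read 14.10 without ET-1 and 14.28 with it in either genotype (limma adjusted p = 0.999). Myh9, nonmuscle myosin IIA, read 13.37 and 13.08 in untreated and ET-1-treated FAK-/- cells, against 13.67 and 14.58 in FAK+/+ cells, and did not pass (limma adjusted p = 0.167). Its 5 probe sets gave -0.30 to -1.01 in untreated cells, all in the same direction. After ET-1 they ran from -1.50 to 1.19, so no single direction held for Myh9 in that state.

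Among smooth muscle thin filament genes the calponin Cnn1, an actin-binding protein of differentiated smooth muscle, differed most. It read 9.91 in untreated and 9.45 in ET-1-treated FAK-/- cells, against 12.17 and 12.48 in FAK+/+ cells. The genotypes stood apart in both states, and Cnn1 fell by 2.65 ± 0.23 (SE, limma adjusted p = 0.00995), at 4.79-fold lower without ET-1 and 8.19-fold lower with it. Lmod1, a leiomodin that nucleates actin filaments in smooth muscle, read 8.72 and 8.50 in FAK-/- cells, against 9.86 and 9.88 in FAK+/+ cells. It fell by 1.26 ± 0.11 (limma adjusted p = 0.00942). Both FAK-/- values of Lmod1 lay below the level filter, and it passed through the FAK+/+ arrays alone, so this call gives no support for a direction. Tagln (SM22-alpha), an early smooth muscle and myofibroblast marker, read 13.28 and 13.36 in FAK-/- cells, against 14.15 and 14.45 in FAK+/+ cells. It fell by 0.98 ± 0.12 (limma adjusted p = 0.0191), which is about as far as the 2-fold line. Smtn (smoothelin) went the other way. It read 11.42 and 11.70 in FAK-/- cells, against 10.52 and 9.89 in FAK+/+ cells, and rose by 1.35 ± 0.26 (limma adjusted p = 0.0490). The Smtn call was lost with no level filter (adjusted p = 0.0762) and without the intensity trend (adjusted p = 0.0643), and Smtn has 1 probe set.

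The other thin filament and intermediate filament genes did not pass. Cald1, caldesmon, read 14.22 and 14.29 in FAK-/- cells, against 14.38 and 14.59 in FAK+/+ cells, with a fitted difference of -0.23 ± 0.09 (SE, limma) that did not pass. Its 4 probe sets above the filter gave -0.16 to -1.23 in untreated cells. Des, the muscle intermediate filament protein desmin, read 9.67 in both FAK-/- arrays, against 9.38 and 9.23 in FAK+/+ cells (limma adjusted p = 0.0991). A dimmer Des probe set above the filter gave 0.12 in untreated cells and -0.07 with ET-1, so its sign turned. Synpo2 (myopodin) read 8.64 to 8.96 over the 4 arrays, at the edge of the filter, and passed it through the untreated FAK+/+ array alone.

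Calponin and transgelin relatives that nonmuscle cells also use split. Cnn2 read 12.64 in untreated and 12.17 in ET-1-treated FAK-/- cells, against 14.52 and 14.36 in FAK+/+ cells. It was 3.67-fold lower in untreated FAK-/- cells and 4.55-fold lower after ET-1, and fell by 2.03 ± 0.15 (SE, limma adjusted p = 0.0077). Cnn3, another calponin, read 14.29 and 14.32 in FAK-/- cells, against 14.33 and 14.48 in FAK+/+ cells, near the array maximum throughout. Its 6 probe sets gave -0.17 to -0.03 in untreated cells, and none reached the size seen for Cnn1 or Cnn2. Tagln2 read 13.94 and 13.81 in FAK-/- cells, against 13.72 and 13.69 in FAK+/+ cells, and did not pass (limma adjusted p = 0.411).

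Tropomyosins, which coil along the filament and gate myosin, were lower in both FAK-/- arrays for all 4 genes by the brightest probe set. None passed limma, where 7.05% of all genes fell and 6.60% rose. Tpm2, the beta tropomyosin, read 13.13 and 12.74 in FAK-/- cells, against 13.72 and 13.91 in FAK+/+ cells, a fitted difference of -0.88 ± 0.19 (SE, adjusted p = 0.0651). All 4 of its probe sets were lower in both states, at -0.59 to -0.97 untreated and -0.45 to -2.21 after ET-1. The mean of these probe sets passed (limma adjusted p = 0.0344). Tpm4 read 14.20 and 14.08 in FAK-/- cells, against 14.59 and 14.76 in FAK+/+ cells (limma adjusted p = 0.0570). Tpm1 differed by -0.34 in untreated cells and -0.22 with ET-1, and Tpm3 by -0.05 and -0.24. Another 2 probe sets of Tpm1 above the filter gave -0.34 and -0.71 in untreated cells and 0.11 and 0.80 with ET-1, so the direction of Tpm1 after ET-1 depended on the probe set. In the fit with FAK+/+ as 1 array, chosen after seeing the data, Tpm1, Tpm2 and Tpm4 had adjusted p-values of 0.0230, 0.0286 and 0.00978 by limma, with the spread taken from the FAK-/- arrays alone.

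No crosslinker of the set passed limma, where 7.05% of all genes fell and 6.60% rose. Flna, filamin A, which joins filaments into networks and ties them to integrins, read 12.79 and 12.88 in FAK-/- cells, against 13.56 and 13.51 in FAK+/+ cells. Its difference of -0.70 ± 0.14 (SE, limma adjusted p = 0.0544) lay just outside the threshold and passed under 5 of the 6 other settings. Actn1 and Actn4 encode the alpha-actinins that space filaments within a stress fibre. Actn1 read 14.00 and 13.85 in FAK-/- cells, against 14.22 and 14.39 in FAK+/+ cells. Actn4 read 13.64 and 13.43 in FAK-/- cells, against 13.55 and 13.47 in FAK+/+ cells, and the groups overlapped. Flnc, the muscle filamin, differed by -0.37 in untreated cells and by 0.33 with ET-1, so the sign turned.

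Of 5 PDZ and LIM genes, 3 fell and 0 rose by limma, where 7.05% and 6.60% of all genes did. Fhl2, a LIM cofactor that binds SRF and integrin tails, read 11.01 in untreated and 10.84 in ET-1-treated FAK-/- cells, against 12.22 and 12.38 in FAK+/+ cells. It was 2.31-fold lower in untreated FAK-/- cells and 2.91-fold lower after ET-1, and fell by 1.37 ± 0.18 (SE, limma adjusted p = 0.0205). Csrp2 (SmLIM), a LIM protein of vascular smooth muscle, read 9.63 and 9.71 in FAK-/- cells, against 10.35 and 10.41 in FAK+/+ cells. It fell by 0.71 ± 0.10 (limma adjusted p = 0.0226). Pdlim5, an alpha-actinin-binding protein, read 12.65 and 12.83 in FAK-/- cells, against 13.36 and 13.87 in FAK+/+ cells. It fell by 0.87 ± 0.16 (limma adjusted p = 0.0432) by its brightest probe set, but the mean of its 7 probe sets did not pass (limma adjusted p = 0.0929). Pdlim7 differed by -0.26 in untreated cells and -0.67 with ET-1 (limma adjusted p = 0.210). Csrp1 read 10.32 and 10.13 in FAK-/- cells, against 10.72 and 9.02 in FAK+/+ cells. The groups of Csrp1 overlapped, and its difference was -0.39 untreated and 1.11 after ET-1.

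Of 15 members with several probe sets above the filter, 12 had every such probe set lower in untreated FAK-/- cells and 6 had every one lower after ET-1. Signs were mixed for 1 and 6 of the 15. The same shares were not computed over all genes, so these counts do not show whether the agreement is particular to the members. The range of the genotype difference over the probe sets of a gene had a median of 0.25 on the log2 scale in untreated cells and 0.67 with ET-1. The array with the wide Gapdh gap between transcript ends enters the comparison after ET-1 and not the untreated one, and its part in this was not tested. The Actb gap of untreated cells was 1.30 in FAK-/- and 0.66 in FAK+/+ cells, and its part was not tested either.

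ET-1 itself went with few differences in these genes. In FAK-/- cells 2 of 31 members were at least 2-fold lower after ET-1 and 0 were higher, where 0.277% and 0.236% of all genes were (0.513% in either direction). Myl9 differed by -1.97 and Actg2 by -1.38, so both genes that were already lowest relative to FAK+/+ cells were lower again in the treated array. Their treated FAK-/- values, 7.51 and 8.33, lay below the level filter, so the sizes of these differences are uncertain. Cnn1 differed by -0.46 and Cnn2 by -0.47. In FAK+/+ cells 1 member, Csrp1, was at least 2-fold lower after ET-1 (-1.70) and 0 were higher, where 1.17% and 0.781% of all genes were (1.95% in either direction). Acta1 lay just inside 2-fold at 0.99, followed by Myh9 at 0.91 and Mylk at 0.77. For the myofibroblast markers the FAK+/+ difference was 0.08 for Acta2, 0.30 for Tagln and 0.31 for Cnn1. The median over the 31 members was -0.12 in FAK-/- cells and 0.15 in FAK+/+ cells, against -0.02 and 0.05 over all genes tested. Averaged over genotypes, limma called 0 of 31 members and 0 of 12290 genes, with a lowest adjusted p of 0.780 in both. At an unadjusted p under 0.05 there were 643 genes (5.23%) and 1 member, Mylk. Its brightest probe set differed by 0.41 in FAK-/- and 0.77 in FAK+/+ cells, but the other Mylk probe set above the filter gave -0.15 in FAK-/- and 0.03 in FAK+/+ cells, so no direction held across both.

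In FAK+/+ cells the ET-1 difference depended on the probe set. For Myh9 the 5 probe sets gave -2.31, -0.63, -0.42, 0.09 and 0.91, a range of 3.22, while in FAK-/- cells they spanned 0.42. Tpm1 had a bright probe set at -0.23 and dimmer ones at -0.73 and -1.45 in FAK+/+ cells. Both probe sets of Flnc were lower, at -0.91 and -1.69. Over the 15 members with several probe sets above the filter, the range within a gene had a median of 0.33 in FAK-/- cells and 0.78 in FAK+/+ cells. The FAK+/+ difference uses the array whose Gapdh gap was 3.79, and probe positions were not used here. The part of transcript ends in the ET-1 differences of Csrp1, Flnc, Myh9 and Tpm1 was not tested.

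**Figure D4:**
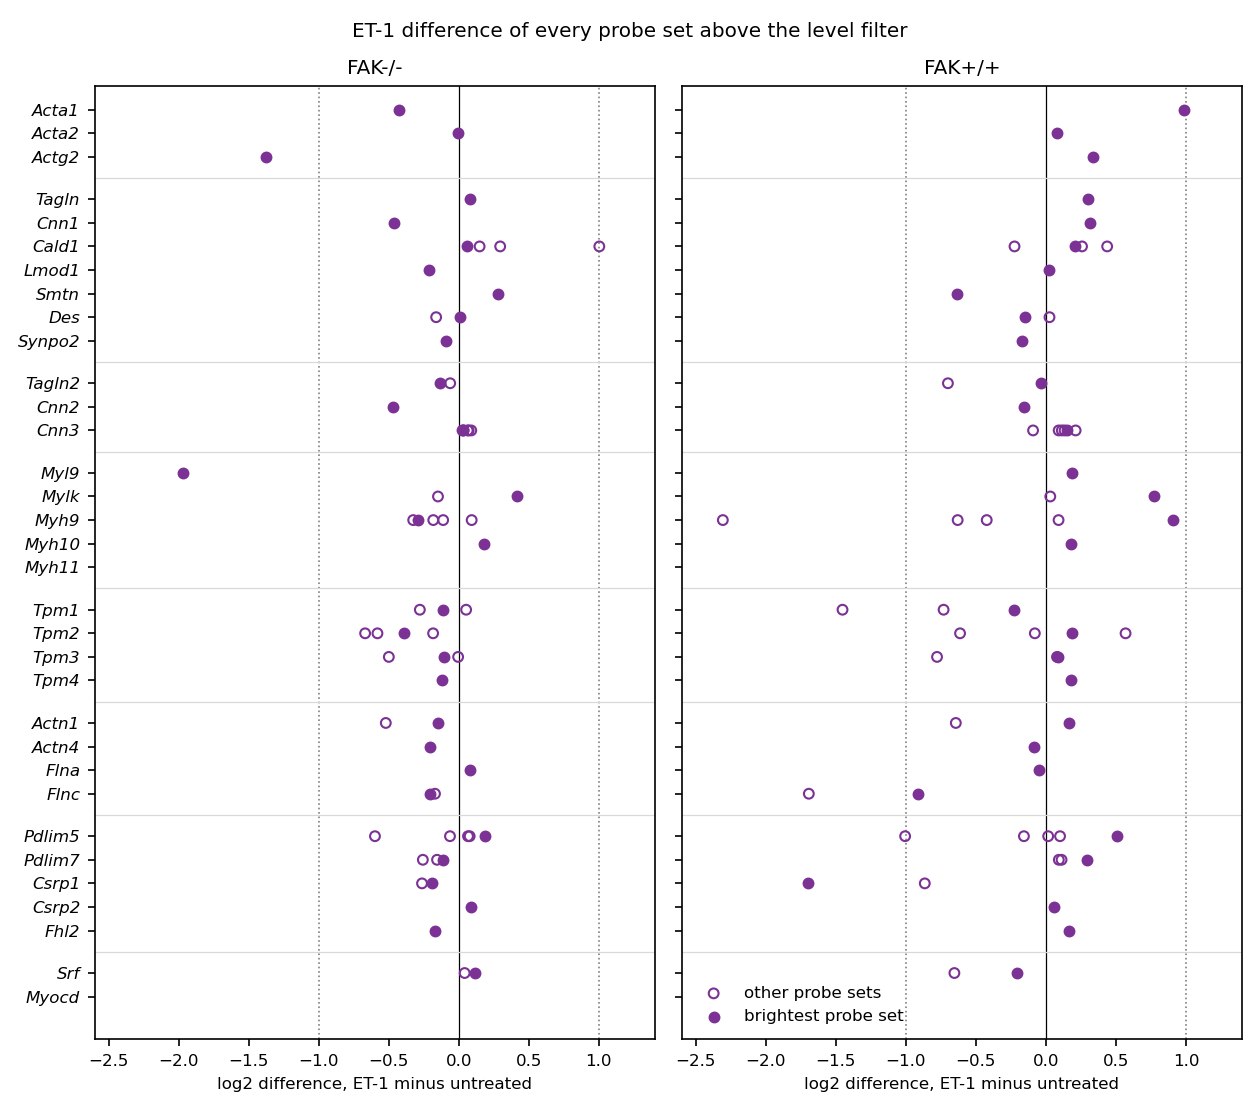
Log2 difference ET-1 minus untreated (horizontal axis) of every member probe set above the level filter, in FAK-/- cells (left) and FAK+/+ cells (right), with the brightest probe set of each gene filled and dotted lines at 2-fold. In FAK-/- cells Myl9 (-1.97) and Actg2 (-1.38) lie past 2-fold, and in FAK+/+ cells the probe sets of Myh9 spread from -2.31 to 0.91.

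The ET-1 difference was compared between genotypes by subtraction, FAK-/- minus FAK+/+, which leaves no degree of freedom for a test. At 2-fold or more 4 members were lower and 1 was higher, where 1.31% and 1.59% of all genes were (2.90% in either direction). The lower ones were Myl9 (-2.16), Actg2 (-1.72), Acta1 (-1.41) and Myh9 (-1.20), and the higher one was Csrp1 (1.51). The ET-1-treated FAK-/- values of Myl9 and Actg2 lay below the level filter. For Myh9 the mean of all probe sets gave 0.31, the opposite sign.

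Related genes outside the set were read from lists to place the members. Of 24 other actin crosslinkers and stress fibre proteins that passed the filter, 8 fell and 3 rose by limma, and their median difference was -0.11 untreated and -0.20 with ET-1. Actn3, among the 3 that rose, passed the level filter through the FAK-/- arrays alone, so it gives no support for a direction. Lima1 (EPLIN), which bundles filaments, read 11.33 and 11.49 in FAK-/- cells, against 13.05 and 12.73 in FAK+/+ cells. Pdlim2 fell by 1.76 ± 0.17 (SE, limma adjusted p = 0.0119). The small LIM protein Crip1 rose by 3.39 ± 0.43 (limma adjusted p = 0.0202), with 14.01 and 13.57 in FAK-/- cells against 11.42 and 9.37 in FAK+/+ cells, and its relative Crip2 rose by 1.33 ± 0.18. Of 24 genes of cytoplasmic actins and actin turnover, 4 fell and 0 rose, with list medians of -0.25 and -0.29. There Cap1, a cyclase-associated protein that recycles actin monomers, read 10.40 and 10.45 in FAK-/- cells, against 12.42 and 12.24 in FAK+/+ cells. Pfn2, a profilin, fell by 1.76 ± 0.20 (limma adjusted p = 0.0163). Wdr1, a cofactor of cofilin, differed by -1.41 in untreated cells and -0.27 with ET-1, and the profilin Pfn1 by -0.76 and 0.69.

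**Figure D5:**
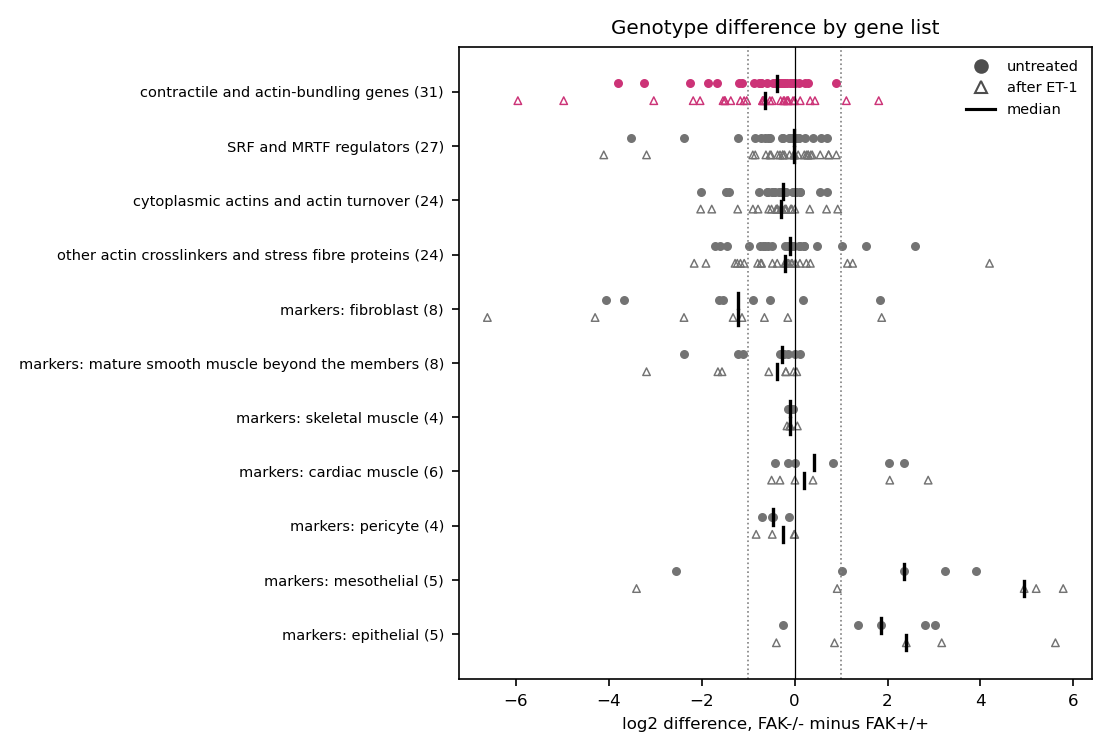
Log2 difference FAK-/- minus FAK+/+ (horizontal axis) for the genes that passed the level filter in each list with at least 4 of them, in untreated cells (circles) and after ET-1 (triangles), with the median as a bar and the number of genes in brackets. The contractile set has medians of -0.39 and -0.63, and the mesothelial markers have medians of 2.36 and 4.94.

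Markers of cell types moved with genotype as well. Of 8 fibroblast markers above the filter, of 9 measured, 6 fell and 1 rose by limma, where 7.05% and 6.60% of all genes did. The median level of the list was 13.14 and 12.78 in untreated and ET-1-treated FAK-/- cells, against 13.59 and 14.03 in FAK+/+ cells. Thy1, a fibroblast surface protein, read 8.95 and 6.85 in FAK-/- cells, against 13.01 and 13.46 in FAK+/+ cells, while Dcn, the matrix proteoglycan decorin, read 14.47 and 14.60, against 12.64 and 12.73. Of 5 mesothelial markers 3 rose and 1 fell, and Wt1, a transcription factor of mesothelium, read 13.43 and 13.41 in FAK-/- cells, against 10.20 and 8.47 in FAK+/+ cells. Their median level was 13.43 in untreated FAK-/- cells, against 11.43 in untreated FAK+/+ cells, with a median difference of 2.36 there and of 4.94 with ET-1. The 1 that fell, Krt19, passed the level filter through the FAK+/+ arrays alone, so it gives no support for a direction. Of 5 epithelial markers 4 rose and 0 fell, with median levels of 11.73 and 11.60 in FAK-/- cells, against 10.04 and 8.43 in FAK+/+ cells. Dsp, among the 4 that rose, passed the level filter through the FAK-/- arrays alone, so it gives no support for a direction.

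Other muscle markers did not move as one. Of 8 further smooth muscle markers above the filter 3 fell and 0 rose by limma, where 7.05% and 6.60% of all genes did. These were Aoc3, Ppp1r14a and Cacna1c, and each was below the filter in both FAK-/- arrays and passed through FAK+/+ arrays alone, so this count gives no support for a direction. Aoc3 read 7.50 and 7.57 in FAK-/- cells, against 8.71 and 9.13 in FAK+/+ cells. Only 4 of 12 skeletal muscle markers passed the filter, at 8.72 to 9.64 over all arrays, and 0 changed. Of 6 cardiac markers 2 rose, and Gata4, a transcription factor of heart and other mesoderm, read 11.37 and 11.53 in FAK-/- cells, against 9.03 and 8.66 in FAK+/+ cells. The other, Myl7, passed the level filter through the FAK-/- arrays alone, so it gives no support for a direction. Of 4 pericyte markers 1 fell and 0 rose, and 1 of 6 endothelial markers passed the filter and 0 changed. In RNA from whole cultures, fewer cells of a type and less RNA per cell cannot be told apart. The part of a different cell make-up in the contractile gene differences was not tested. Variation between lines cannot be told apart from loss of FAK, since each genotype was read as 1 array per treatment.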

How the data were processed

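Total RNA (100 ng) was labelled in 2 cycles, per the labels' protocols, a procedure that starts at the poly-A tail and can lose 5' signal. The authors deposited 1 table of log2 values for 45101 probe sets, and the submitters' processing notes name RMA as the method. Values ran from 5.00 to 15.24 and were used as deposited. The platform annotation gives a single gene for 34958 probe sets and more than 1 for 932. All 33 member symbols matched RefSeq (GRCm38) by Entrez identifier. Each gene was represented by its brightest probe set, with a filter at log2 8.90 on its highest array. Differences between arrays are values without a test. The additive model was fitted with limma 3.58.1 in R 4.3.3, with eBayes moderation that follows the intensity trend, over 12290 genes, and was tested on simulated data. It had 1 residual and 3.00 prior degrees of freedom. Python 3.11.15, numpy 2.4.6, pandas 2.3.3 and matplotlib 3.10.9 were used for the rest. No batch or scan date was used. The number of arrays limits the precision.

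The members, gene lists, thresholds and alternatives were chosen with earlier results of these data known. The rule for named genes allowed every member and, from each other list, up to 4 genes with the largest untreated genotype difference, with both cytoplasmic actins and both MRTF genes. Actn3, given for its place at the filter, was named outside this rule. The fit without the ET-1-treated FAK+/+ array was added after seeing the data.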

Additional observations from a re-analysis of the deposited data

Results flagged for a closer look

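In 4 members the ET-1 difference had opposite signs in the genotypes and the genotypes differed by 2-fold or more, each on 1 array per group, and the difference was not tested. For Myl9 the ET-1 difference was -1.97 in FAK-/- cells and 0.19 in FAK+/+ cells, a difference of -2.16 on the log2 scale. Actg2 had -1.38 in FAK-/- cells and 0.34 in FAK+/+ cells, a difference of -1.72. The ET-1-treated FAK-/- values of Myl9 and Actg2, 7.51 and 8.33, lay below the level filter, so these sizes are uncertain. Acta1 had -0.42 in FAK-/- cells and 0.99 in FAK+/+ cells, a difference of -1.41. Myh9 had -0.29 in FAK-/- cells and 0.91 in FAK+/+ cells, a difference of -1.20, and its other probe sets did not share that sign. All 4 differences use the array with the wide Gapdh gap, whose part in them was not tested.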

How the results depend on the processing

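No paired analysis was possible because each group has 1 array and the labels give no replicate numbers. Counts of members past 2-fold stayed within 1.5 times under most settings. At 1.5-fold, 13 members differed between genotypes in untreated cells (7 at 2-fold), 12 lower and 1 higher, where 9.02% and 10.9% of all genes were. At the same fold 6 differed after ET-1 in FAK+/+ cells (1 at 2-fold), where 10.7% of all genes did, and 8 in the difference of ET-1 differences (5 at 2-fold), where 12.4% did. The FAK+/+ count after ET-1 was 2 with the mean of all probe sets and 2 with array medians subtracted. The difference of ET-1 differences of Myh9 was 0.31 with the mean of all probe sets, against -1.20 by the brightest. The limma genotype count of 12 ran from 9 with no level filter to 16 without the ET-1-treated FAK+/+ array, and the ET-1 count was 0 under each setting. The calls of Acta2, Smtn and Pdlim5 were each lost under at least 1 setting, with adjusted p-values of 0.0593 or more for Acta2, 0.0643 and 0.0762 for Smtn, and 0.0592 and 0.0929 for Pdlim5. Signal near the array maximum limits Acta2 and Cnn3, and signal below the filter limits the folds of Myl9, Actg2 and Lmod1.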
